A study of Mus musculus with 20 samples.

Results

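Ptgds, which encodes lipocalin-type prostaglandin D synthase, was followed here in mouse heart ventricle together with Ptgs1, Ptgs2, Ptgis and Ptges, which encode other enzymes of prostaglandin synthesis. The genes were taken by name, and Ptgds was chosen by its own measured values on these arrays, because its level was high with both estrogen receptor agonists. Every array probe set whose platform annotation held exactly 1 of these symbols was used. This gave 8 probe sets for 4 of the 5 genes, of 18193 genes with such a probe set on the array: 2 for Ptgds, 2 for Ptgs2, 3 for Ptges and 1 for Ptgis. Ptgs1 was not matched to a probe set and is not analysed here.

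Prostaglandins are made in steps. Phospholipases free arachidonic acid from membranes, the cyclooxygenases (Ptgs1, the constitutive form, and Ptgs2, the inducible form) turn it into prostaglandin H2, and a terminal synthase then sets the product. Ptgds makes prostaglandin D2 and is also a secreted lipocalin that carries small lipophilic molecules, Ptgis makes prostacyclin, a vasodilator that restrains platelets, and Ptges makes prostaglandin E2. The products act on their own receptors at the surface of nearby cells and are broken down after uptake.

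The arrays held total RNA from ventricles of female C57BL/6 mice, all ovariectomized at 8 weeks of age and then given a cyclodextrin-bound estrogen or placebo from an implanted minipump for 4 weeks. There were 4 groups of 5 samples: placebo (titled OVX), 17β-estradiol (titled E2, the natural hormone, which activates receptors α and β alike), 16α-LE2 (titled alpha, an agonist of estrogen receptor α per the labels), and samples titled beta whose treatment label reads control solution. Title and treatment label of the last group disagree, so its samples are named beta-titled here and kept apart from placebo. The labels state no dose. The agonists can therefore be set side by side after equal treatment times, while their doses may differ, and no group with intact ovaries is among the samples. The labels do not state that the samples of a group came from separate animals, and p-values measure the spread between these samples.

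Values are on a log2 scale, so that a difference of 1 is a 2-fold change. Of the 20 arrays, estradiol replicate 33 stood apart: Spearman correlations between arrays went down to 0.922 with it and to 0.978 without it. Member differences between estradiol and placebo are given with and without it. The number of arrays limits the precision: over the 12082 genes tested, 95% intervals extended a median of 0.21 log2 units to either side of a difference. The expression filter was the median of all probe set means, 6.93. As a check of the tissue, all 7 listed cardiomyocyte markers lay above it, with the cardiac myosin gene Myh6 at a mean of 14.10.

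Ptgds was high with both agonists, and its placebo and beta-titled samples lay lower and further apart. On probe set 1423859_a_at, the placebo samples measured 13.13, 13.15, 12.51, 12.96 and 12.58 (replicates 31, 32, 33, 34 and 36). The beta-titled samples measured 12.79, 12.21, 12.58, 12.93 and 12.81 (replicates 31, 32, 33, 35 and 36). Placebo replicates 33 and 36 and beta-titled replicates 32 and 33 were the lowest of the 20. The estradiol samples measured 13.51, 13.21, 13.23, 13.36 and 13.48 (replicates 29, 30, 33, 34 and 35). The 16α-LE2 samples measured 13.27, 13.34, 13.45, 13.31 and 13.35 (replicates 29, 30, 32, 33 and 34). All 10 agonist samples thus lay above all 10 others, by a narrow gap of 0.06 between the lowest agonist sample, estradiol replicate 30, and the highest other sample, placebo replicate 32.

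**Figure D1:**
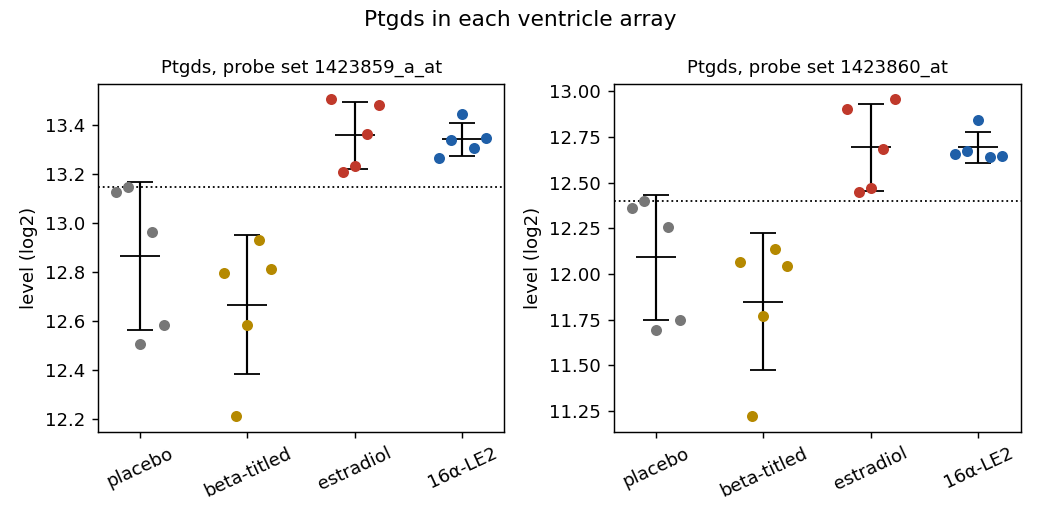
Ptgds level (log2) on each of the 20 arrays, for probe sets 1423859_a_at (left) and 1423860_at (right), by group. Points are arrays, bars the mean ± SD (n = 5), and the dotted line the highest placebo or beta-titled array; on both probe sets all 10 agonist arrays lie above it, by 0.06 and 0.05. The axes do not start at 0.

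The other probe set, 1423860_at, gave the same separation. Its levels went from 11.69 to 12.40 with placebo, from 11.22 to 12.14 in the beta-titled group, from 12.45 to 12.96 with estradiol and from 12.64 to 12.85 with 16α-LE2. The gap between the lowest agonist and the highest other sample was 0.05. Across the 20 arrays the probe sets followed each other closely (Pearson's r = 0.99, Spearman's rho = 0.99), as a description of measurements of 1 gene in the same RNA.

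In group means on probe set 1423859_a_at, the order from low to high was beta-titled (12.67 ± 0.28, SD, n = 5), placebo (12.87 ± 0.30), 16α-LE2 (13.34 ± 0.07) and estradiol (13.36 ± 0.14). The differences from placebo were 0.48 ± 0.13 (SE) with 16α-LE2, or 1.39-fold, and 0.49 ± 0.13 with estradiol. On 1423860_at both were 0.60 ± 0.16, or 1.52-fold. Relative to the beta-titled group, the differences on 1423859_a_at were 0.67 ± 0.13 with 16α-LE2 and 0.69 ± 0.13 with estradiol. These values led to the choice of Ptgds and carry no test. Of the 12082 tested genes, Ptgds was the 1 gene (0.00828%) with all 10 agonist samples above all 10 placebo and beta-titled samples, which is again a restatement of how it was chosen. Without estradiol replicate 33 the difference of estradiol from placebo was 0.52, and 0.66 on 1423860_at.

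For Ptgds, placebo and the beta-titled group did not pass against each other, and neither did the agonist groups. Between the agonists, the Ptgds difference on 1423859_a_at was −0.02 (16α-LE2 minus estradiol), with a 95% interval from −0.28 to 0.25 that leaves room for a difference of either sign (limma adjusted p = 0.986). On 1423860_at the interval went from −0.33 to 0.33. The sign on 1423859_a_at turned in some settings, such as with the replicate number as a block (0.03). The beta-titled group differed from placebo by −0.20 ± 0.13 (SE; limma adjusted p = 0.707), with 1 of 5 beta-titled samples above the placebo mean, and by −0.03 after quantile normalization. Leaving out 1 array moved it to between −0.29 (without placebo replicate 33) and −0.09 (without beta-titled replicate 32). The SD between samples was 0.07 with 16α-LE2 and 0.14 with estradiol against 0.30 with placebo and 0.28 in the beta-titled group, and on 1423860_at it was 0.09, 0.24, 0.34 and 0.38 in the same order. This difference in spread was seen in the data and was not tested. The fit shared its estimate of the spread among all 4 groups. The interval and p between the agonists therefore also reflect the wider spread of the placebo and beta-titled samples.

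The 250 bases before the Ptgds start site are shown because estrogen receptors can act at estrogen response elements or through AP-1 and Sp1 sites. The sequence is RefSeq's, on the minus strand of chr2:25469750-25469999 (GRCm38.p6), written 5′ to 3′ in the direction of the gene, with the one match to a searched motif in capitals.
Ptgds promoter: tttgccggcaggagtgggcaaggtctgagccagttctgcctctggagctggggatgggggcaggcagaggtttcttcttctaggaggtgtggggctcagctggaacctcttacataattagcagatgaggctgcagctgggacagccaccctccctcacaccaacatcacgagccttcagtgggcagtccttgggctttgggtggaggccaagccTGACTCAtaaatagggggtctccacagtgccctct
The capitals mark TGACTCA, a match to the AP-1 motif TGANTCA, which starts 35 bases before the start site and overlaps no other match. Such a match is in 6.75% of 32851 promoter windows of the same length. The full palindromic estrogen response element (0.0639% of windows), its half-site AGGTCA (14% of windows) and the Sp1 motif GGGCGG (32.7% of windows), each searched on both strands, had no match in this window. In the windows of Ptges and Ptgs2, the full element and its half-site had no match either, while the Sp1 motif had 2 matches for Ptges and 1 for Ptgs2. RefSeq's table gave no window for Ptgis. A match describes letters, and binding was not measured.

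Ptgs2, the inducible cyclooxygenase, was at the low end of the scale in every group. Both of its probe sets lay below the expression filter, with means over all arrays of 6.33 (1417263_at) and 6.20 (1417262_at). On 1417263_at the samples ranged from 6.18 to 6.29 with placebo, from 6.21 to 6.52 in the beta-titled group, from 6.21 to 6.62 with estradiol and from 6.25 to 6.48 with 16α-LE2, so all groups overlapped. In the fit over all 45037 probe sets, its differences from placebo were 0.11 ± 0.07 (SE) with 16α-LE2, 0.13 ± 0.07 with estradiol and 0.13 ± 0.07 in the beta-titled group (limma adjusted p = 0.738, 0.579 and 0.747). Without estradiol replicate 33, which held the highest value of 6.62, the estradiol difference was 0.07. On 1417262_at the differences were 0.04, −0.0085 (−0.015 without estradiol replicate 33) and 0.0026, and the last pair changed sign in some settings.

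Ptgis, the prostacyclin synthase, was clearly above the filter and varied more within groups than between them. Placebo samples measured 8.74, 8.81, 9.03, 8.55 and 9.25 (replicates 31, 32, 33, 34 and 36), and beta-titled samples measured 8.87, 8.53, 8.72, 9.19 and 9.13 (replicates 31, 32, 33, 35 and 36). Estradiol samples measured 8.62, 8.81, 8.42, 9.26 and 9.47 (replicates 29, 30, 33, 34 and 35), the widest spread of the 4 groups (SD 0.44), with replicates 34 and 35 high and replicate 33 low. The 16α-LE2 samples measured 8.65, 8.72, 8.98, 8.58 and 8.79 (replicates 29, 30, 32, 33 and 34), the narrowest spread (SD 0.15). All groups overlapped.

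The order of the Ptgis means was 16α-LE2 (8.74), placebo (8.88), beta-titled (8.89) and estradiol (8.91), and no neighbours differed beyond their spread. The differences from placebo were −0.13 with 16α-LE2 (95% interval −0.48 to 0.22, limma adjusted p = 0.893), 0.04 with estradiol (−0.31 to 0.39, limma adjusted p = 0.923) and 0.01 in the beta-titled group (−0.34 to 0.36, limma adjusted p = 0.991). Between 16α-LE2 and estradiol it was −0.17 (−0.52 to 0.18, limma adjusted p = 0.875), and it ranged from −0.29 (without estradiol replicate 33) to −0.03 (without estradiol replicate 35) when 1 array was left out. In the same way the 16α-LE2 difference from placebo ranged from −0.21 (without placebo replicate 34) to −0.04 (without placebo replicate 36). Relative to the beta-titled group, 16α-LE2 differed by −0.14 and estradiol by 0.03 (limma adjusted p = 1 and 0.986). The estradiol difference from placebo was 0.16 without estradiol replicate 33 (limma adjusted p = 0.896) and −0.10 without replicate 35. The difference of 16α-LE2 from the beta-titled group ranged from −0.23 (without beta-titled replicate 32) to −0.07 (without beta-titled replicate 35).

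Ptges, the inducible prostaglandin E synthase, was at the edge of the filter. Its probe set 1439747_at passed by 0.02 with a mean of 6.95, and 1449450_at and 1449449_at, both at 6.72, did not pass by 0.21. On 1439747_at the samples ranged from 6.84 to 6.96 with placebo, from 6.91 to 7.04 in the beta-titled group, from 6.91 to 7.21 with estradiol and from 6.83 to 7.05 with 16α-LE2. The value of 7.21 was estradiol replicate 33, and the other 4 estradiol samples lay between 6.91 and 6.94.

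Differences of Ptges from placebo on 1439747_at were 0.04 ± 0.06 (SE) with 16α-LE2, 0.08 ± 0.06 with estradiol and 0.07 ± 0.06 in the beta-titled group (limma adjusted p = 0.913, 0.546 and 0.743). Without estradiol replicate 33 the estradiol difference was 0.02. Between 16α-LE2 and estradiol it was −0.04 (95% interval −0.16 to 0.09, limma adjusted p = 0.917), and 0.02 without that array. Against the beta-titled group the differences were −0.04 with 16α-LE2 and 0.0023 with estradiol (limma adjusted p = 1 and 0.996). On 1449449_at the beta-titled group was 0.11 ± 0.05 (SE) above placebo and estradiol 0.10 ± 0.05 (0.08 without estradiol replicate 33), with all 5 samples of each above the placebo mean, and on 1449450_at 16α-LE2 differed by −0.12 ± 0.05 from estradiol, or −0.08 without estradiol replicate 33. None of these passed over all probe sets (limma adjusted p = 0.747, 0.579 and 0.864).

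**Figure D2:**
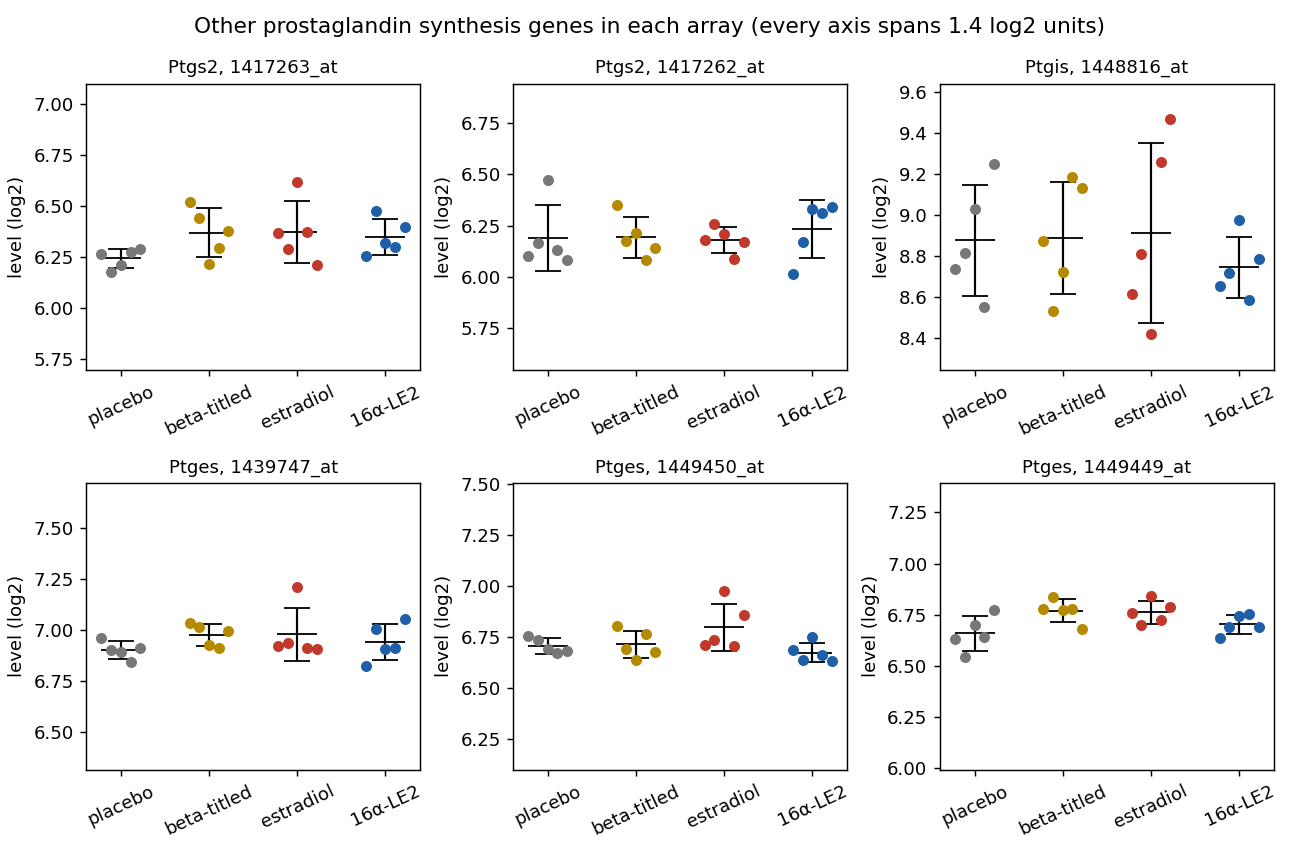
Levels (log2) of Ptgs2 (1417263_at, 1417262_at), Ptgis (1448816_at) and Ptges (1439747_at, 1449450_at, 1449449_at) on each array, by group; points are arrays and bars the mean ± SD (n = 5). Every axis spans the same 1.4 log2 units, and in each panel the groups overlap, with the widest spread for Ptgis under estradiol (SD 0.44).

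Counted together, Ptgis and Ptges passed in 0 of the 6 comparisons among the groups, and Ptgds passed in neither of its tested pair, 16α-LE2 against estradiol and beta-titled against placebo. None of these tests had an unadjusted limma p under 0.05. Over all 12082 genes, 0.223% passed for 16α-LE2 against placebo, 0.0166% for 16α-LE2 against estradiol, 0.174% for 16α-LE2 against the beta-titled group, and 0% for estradiol and for the beta-titled group against placebo and for estradiol against the beta-titled group. In the fit over all probe sets, 0 of the 6 member probe sets other than those of Ptgds passed for 16α-LE2 against placebo, estradiol against placebo, beta-titled against placebo or 16α-LE2 against estradiol. Over all 45037 probe sets the shares were 0.0533%, 0%, 0% and 0.00888%. With so few calls among all features, a count of 0 among so few members is near the background. At an unadjusted p under 0.05, over those 6 probe sets in those 4 comparisons, there were 2 tests, both of Ptges: 1449449_at in the beta-titled group against placebo and 1449450_at in 16α-LE2 against estradiol. Over all probe sets 7.5%, 8.18%, 5.77% and 5.61% had such a p in the 4 comparisons, so the member count is near the background.

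**Figure D3:**
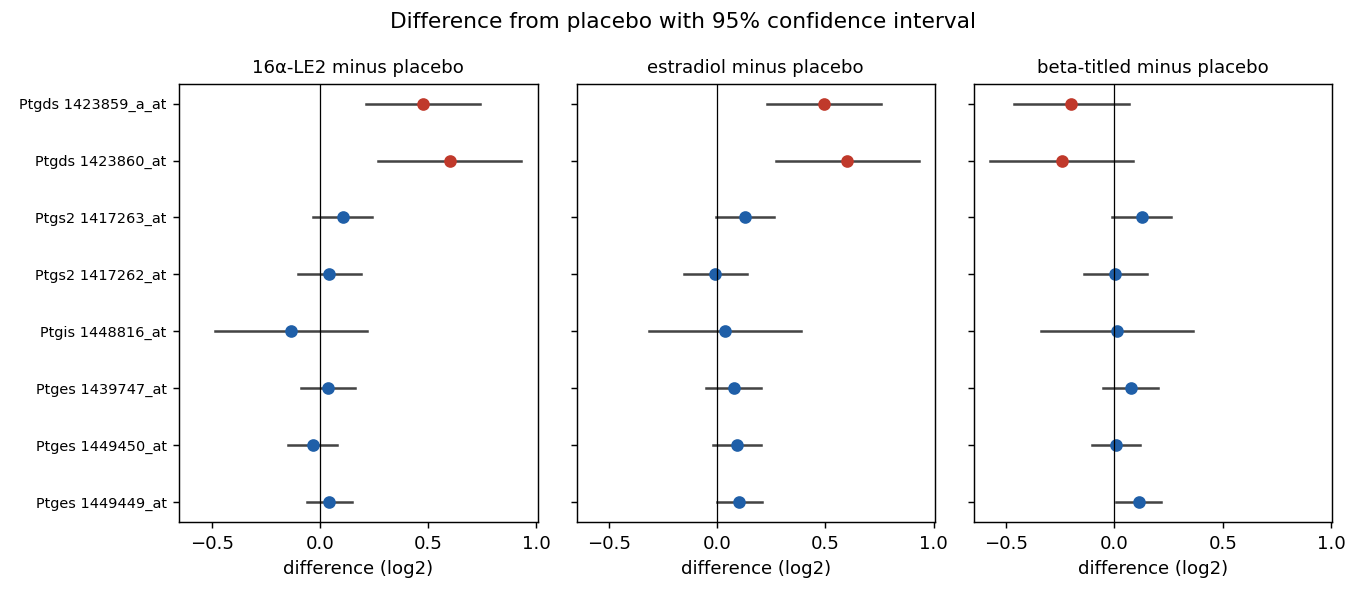
Difference from placebo (log2, dot) with its 95% confidence interval (line) for each probe set, in 16α-LE2, estradiol and the beta-titled group; n = 5 in each group. Ptgds (red) was chosen for its agonist differences of 0.48 to 0.60. These and their intervals are a description, and the position of such an interval beside 0 is not a test. All other dots (blue) lie between −0.13 and 0.13.

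The wider pathway was covered by 6 lists with 67 genes in all, of which 62 had a matched probe set and 39 passed the filter. Of these 39, 0 passed in any of the 6 comparisons with limma. At an unadjusted p under 0.05 there were 8 for 16α-LE2 against placebo, 5 for estradiol against placebo and 1 for the beta-titled group against placebo, which is 20.5%, 12.8% and 2.56% of the 39. Over all 12082 genes those shares were 9.01%, 9.63% and 5.7%. Of the 39, 15.4% had such a p for 16α-LE2 against estradiol, 15.4% for 16α-LE2 against the beta-titled group and 7.69% for estradiol against the beta-titled group. The shares over all genes there were 5.19%, 5.6% and 3.83%. The median differences of the 39 from placebo were −0.0009 with 16α-LE2, −0.0008 with estradiol and −0.03 in the beta-titled group, beside −0.03, −0.03 and −0.04 over all genes.

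Upstream of the cyclooxygenases, 10 of 14 listed genes of arachidonate release were tested. Pla2g5, a secreted phospholipase, had the smallest p of this list with 16α-LE2. Its samples ranged from 7.77 to 8.17 there and from 8.27 to 8.70 with placebo, and the difference was −0.46 ± 0.13 (SE; limma adjusted p = 0.15). Of the alternatives, Pla2g5 passed only with array weights (limma adjusted p = 0.0321), where 357 of all 12082 genes passed, against 27 without weights. With estradiol the smallest p was that of Pla2g6, a calcium-independent phospholipase (0.14 ± 0.07, SE; limma adjusted p = 0.499), and in the beta-titled group that of Plaat3, an adipose-type phospholipase (−0.25 ± 0.10, limma adjusted p = 0.707). In all, 3 members were above and 7 below placebo with 16α-LE2, and 4 above and 6 below with estradiol and in the beta-titled group.

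Among other terminal synthases and reductases, 7 of 11 were tested, with 3 above and 4 below placebo with 16α-LE2, 4 above and 3 below with estradiol, and 1 above and 6 below in the beta-titled group. The smallest p belonged to Cbr3 with 16α-LE2 (−0.18 ± 0.10, SE), Cbr2 with estradiol (0.32 ± 0.19) and Ptges2 in the beta-titled group (−0.14 ± 0.11), with limma adjusted p of 0.611, 0.503 and 0.737. Cbr2 and Cbr3 are carbonyl reductases and Ptges2 is a further prostaglandin E synthase. Leaving out placebo replicate 34 took the Cbr2 difference to 0.15 and leaving out placebo replicate 36 took it to 0.48, and the Ptges2 difference was −0.09 without beta-titled replicate 32. Hpgds, the hematopoietic prostaglandin D synthase, was below the filter at a mean of 6.53 and was not tested.

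Of the genes of breakdown and transport, 7 of 8 were tested. Hpgd, the dehydrogenase that inactivates prostaglandins, ranged from 7.84 to 8.44 with 16α-LE2 and from 8.40 to 9.09 with placebo. The groups overlapped slightly, and the difference was −0.45 ± 0.17 (SE; limma adjusted p = 0.376). The smallest p belonged to Ptgr2, a prostaglandin reductase, with estradiol (−0.12 ± 0.12, limma adjusted p = 0.643) and to Abcc4, an exporter of prostaglandins, in the beta-titled group (−0.15 ± 0.07, limma adjusted p = 0.707). The sign of the Ptgr2 difference turned after quantile normalization, and it was −0.05 without estradiol replicate 33.

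Of 11 listed receptors and receptor-related genes 6 were tested. Pparg, a nuclear receptor for which metabolites of prostaglandin D2 are ligands, had the smallest p in every comparison with placebo. It ranged from 8.28 to 8.59 with placebo and from 8.04 to 8.19 with 16α-LE2, and the difference was −0.31 ± 0.08 (SE; limma adjusted p = 0.142). Among the alternatives it passed only with array weights (limma adjusted p = 0.011), where 357 of all 12082 genes passed, against 27 without weights. The Pparg difference was −0.25 ± 0.08 with estradiol (limma adjusted p = 0.499) and −0.16 ± 0.08 in the beta-titled group (limma adjusted p = 0.707). All 3 comparisons share the placebo samples. The surface receptors of prostaglandin D2 were low: Ptgdr was just above the filter at 7.14, and Ptgdr2 was below it at 6.50, as was the prostacyclin receptor Ptgir at 6.80. Hpgds and these surface receptors were singled out after their values were seen.

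In the leukotriene branch, which draws on the same arachidonic acid, 6 of 12 genes were tested. Ltc4s, the leukotriene C4 synthase, ranged from 7.32 to 8.31 with estradiol and from 7.12 to 7.55 with placebo, with overlap, and the difference was 0.41 ± 0.12 (SE; limma adjusted p = 0.499). With 16α-LE2 the smallest p was that of Alox12, a lipoxygenase (0.27 ± 0.16, or 0.14 without 16α-LE2 replicate 34, limma adjusted p = 0.643), and in the beta-titled group that of Lta4h, the leukotriene A4 hydrolase (−0.18 ± 0.11, limma adjusted p = 0.707). Among 11 other genes of the lipocalin fold or family, 3 were tested. Lcn2, an iron-related secreted lipocalin, was 0.42 ± 0.16 above placebo with 16α-LE2 (SE; limma adjusted p = 0.393), and Ambp had the smallest p with estradiol (0.14 ± 0.07, or 0.09 without estradiol replicate 33, limma adjusted p = 0.499) and in the beta-titled group (0.11 ± 0.07, limma adjusted p = 0.707).

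**Figure D4:**
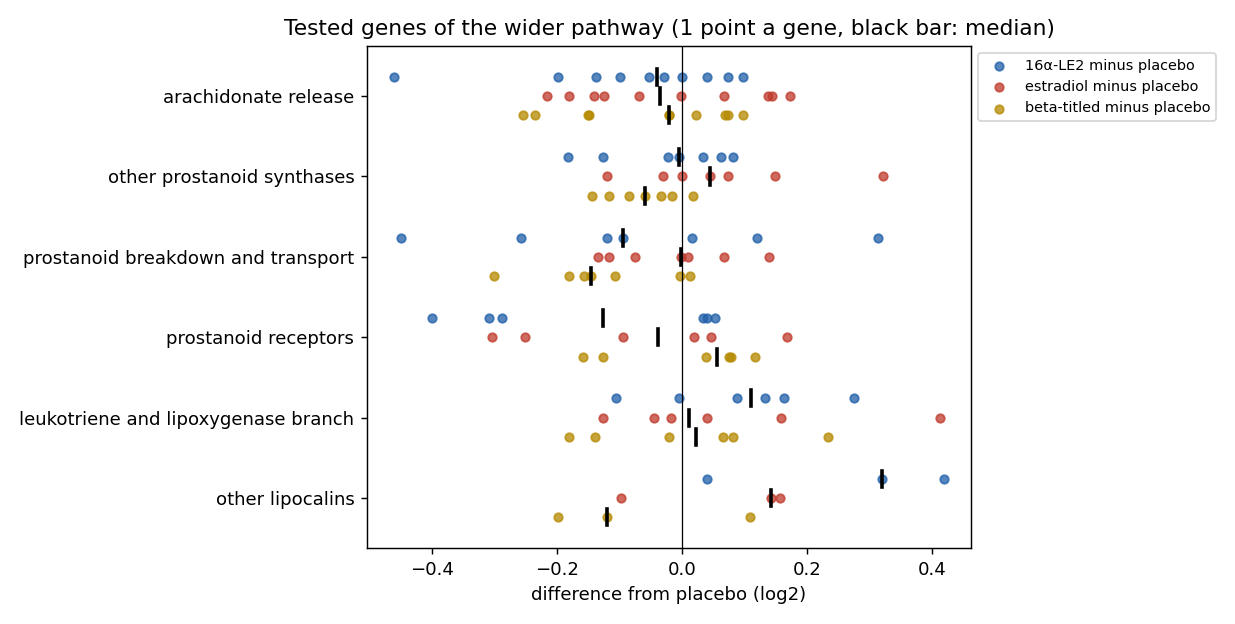
Differences from placebo (log2) of the 39 tested genes of the wider prostaglandin and lipocalin lists, 1 point a gene, in 16α-LE2 (blue), estradiol (red) and the beta-titled group (yellow); black bars are list medians. Points lie on both sides of 0 in most lists, none passed the limma threshold, and the lowest is Pla2g5 with 16α-LE2 at −0.46.

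The genes whose levels followed Ptgds most closely over the 20 arrays were Gpx3, a secreted glutathione peroxidase (Pearson's r = 0.83, Spearman's rho = 0.75), Rfxank, a subunit of a transcription factor of major histocompatibility class II genes (r = 0.78, rho = 0.78), Lsm10, a component of the histone mRNA processing complex (r = 0.76, rho = 0.77), Spon1, a secreted matrix protein (r = 0.74, rho = 0.74), and Calr3, a calreticulin paralogue (r = 0.74, rho = 0.68). Over the other 12081 genes the median r was 0.03. Gpx3 means were 11.00 with placebo, 10.77 in the beta-titled group, 11.48 with estradiol and 11.55 with 16α-LE2. Placebo and the beta-titled group again lay below the agonist groups. Without estradiol replicate 33 the r of Gpx3 was 0.82 and that of Spon1 also 0.82. These correlations rest in part on the group differences for which Ptgds was chosen.

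When each sample was taken as its deviation from its group mean, other genes led. They were 2810414N06Rik (r = 0.74), Pebp1, a phosphatidylethanolamine-binding protein (r = 0.73), Ywhae, a 14-3-3 protein (r = 0.68), Phyh, a peroxisomal hydroxylase (r = 0.67), and Cldn15, a claudin (r = 0.65), and Gpx3 had an r of 0.54. Ptgis and Ptges did not follow Ptgds, with r of 0.01 and −0.03 over the 20 arrays and 0.17 and −0.14 within groups. All these correlations are across 20 arrays that share their processing, and describe these samples.

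Markers of other cell types that a ventricle sample can hold were set beside Ptgds, as the mean level of each of 14 lists on each array. In bulk tissue, fewer cells of a type and less RNA per cell cannot be told apart. No list had all 10 agonist samples above all 10 others, and no single marker did. The red blood cell list (3 of 5 markers matched, all above the filter) was the one whose agonist samples lay furthest above the others, by a mean of 0.32. It ranged from 7.57 to 8.01 with placebo, from 7.72 to 8.04 in the beta-titled group, from 7.81 to 8.19 with estradiol and from 7.98 to 8.88 with 16α-LE2. Its means in that order were 7.76, 7.81, 7.92 and 8.28, so the list was highest with 16α-LE2. In the same order Alas2 had means of 9.07, 9.19, 9.24 and 10.01, and Slc4a1 of 7.25, 7.31, 7.49 and 7.82. Those of Hba-a1, close to the filter, were 6.95, 6.94, 7.04 and 7.01. The correlation of the red blood cell list with Ptgds over the 20 arrays was 0.47. It was 0.43 for the cardiomyocyte list and 0.36 for the smooth muscle list, and lowest for the mast cell list at −0.32. The part of these lists in the Ptgds difference was not tested.

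The endothelial list (6 of 6 markers above the filter) was lowest with 16α-LE2. Its means were 9.72 with placebo, 9.54 in the beta-titled group, 9.52 with estradiol and 9.30 with 16α-LE2. Tek, Cldn5, Cdh5 and Egfl7 had the same order. In that order Kdr had means of 9.76, 9.63, 9.87 and 9.63, and Pecam1 of 9.20, 8.94, 9.08 and 8.93. The atrial cardiomyocyte list (5 of 6 above the filter) varied widely, from 8.50 to 9.31 with placebo, 8.32 to 9.59 in the beta-titled group, 8.63 to 10.19 with estradiol and 8.02 to 9.53 with 16α-LE2. The melanocyte list (2 of 5 above the filter) ranged from 6.74 to 6.95 with placebo, 6.82 to 6.94 in the beta-titled group, 6.80 to 7.08 with estradiol and 6.87 to 7.04 with 16α-LE2, and Tyr, Tyrp1 and Mlana were below the filter. Of the 8 epicardial and mesothelial markers only Upk1b lay above the filter, and the list ranged from 6.62 to 6.93 over all samples. In each of these lists the agonist samples overlapped the others, and their part in the Ptgds difference was not tested.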

How the data were processed

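The deposited table holds 1 value for each of 45101 probe sets and 20 arrays. These deposited values span 5.07 to 15.31 and were therefore taken as log2. Biotinylated cRNA was made from 100 ng total RNA by the Affymetrix protocol, per the labels' protocols. How the authors summarized and scaled them, and to which log base, is not given in the sources used here, and levels have no background signal of their own. Controls (64 probe sets) were left out; 34945 probe sets had 1 symbol, 932 several and 9160 none in the platform annotation, and only the first were named.

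The gene fit kept probe sets with a mean above the median of all (6.93) and, for each gene, the probe set of highest mean. One limma 3.58.1 model (R 4.3.3) held the means of all 4 groups, with eBayes and a trend. A gene passed when its p, adjusted over the 12082 genes by Benjamini and Hochberg's method, was under 0.05. A second fit took all 45037 probe sets without a filter. Intervals are 95% confidence intervals of the fit. The fit was also run on simulated data with independent, normally distributed values and an equal spread in every group. The Ptgds samples had unequal SDs between groups, a setting that the simulation did not cover.

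The members, lists, motifs and rules were chosen with earlier results of these data known. Of each pathway list the gene of smallest p against placebo was named, with the 5 genes most correlated with Ptgds over arrays and within groups. Alternatives covered the filter, the probe set summary, scaling, array weights, the groups fitted, placebo pooled with the beta-titled group, the replicate number and each array. Symbols were matched directly or through RefSeq synonyms (GRCm38.p6 table), and figures were drawn with matplotlib 3.10.9.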

Additional observations from a re-analysis of the deposited data

Results flagged for a closer look

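In each group of 5 samples, a sample was singled out where its gap to the nearest other sample was more than 0.71 of the group's range (Dixon's limit). This was met in 5 of 92 groups, counting the 8 probe sets of the prostaglandin synthesis genes and the 15 named pathway genes, which is 5.43%. For normally distributed values chance alone gives about 1 in 20 at this limit, a rate that was not computed from these data. On Ptgs2 probe set 1417262_at, placebo replicate 33 measured 6.47 against 6.08 to 6.16 in the other placebo samples. On Ptgds probe set 1423860_at, 16α-LE2 replicate 32 measured 12.85 against 12.64 to 12.68 in the others of its group. On Ptges probe set 1439747_at, estradiol replicate 33 measured 7.21 against 6.91 to 6.94. For Hpgd, 16α-LE2 replicate 34 measured 7.84 against 8.32 to 8.44, and for Ptgr2, estradiol replicate 33 measured 10.58 against 10.85 to 10.95.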

How the results depend on the processing

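Over the alternatives, the untested Ptgds differences from placebo on 1423859_a_at, for which Ptgds was chosen, went from 0.37 to 0.58 with 16α-LE2 and from 0.40 to 0.59 with estradiol. Of 50 tested differences, 33 kept their sign throughout, and of 1288 alternative values 2 passed, those of Pla2g5 and Pparg with array weights (0.0795 for estradiol replicate 33). In that setting 357 of all 12082 genes passed for 16α-LE2 against placebo. No tested member difference passed in any alternative, and the Ptgds differences for which it was chosen were not tested.

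The differences whose signs turned did not pass, and the cause was not tested. With quantile normalization, Ptgr2 (estradiol minus placebo) was 0.018, Ptgis (estradiol minus beta-titled) −0.0043, and 1417262_at of Ptgs2 and 1449450_at of Ptges (beta-titled minus placebo) −0.044 and −0.036. With array weights, Ptges was 0.026 (16α-LE2 minus estradiol) and −0.040 (estradiol minus beta-titled), and Ptgs2 was 0.0064 on 1417262_at (estradiol minus placebo) and 0.048 on 1417263_at (16α-LE2 minus estradiol). With placebo and beta-titled samples pooled, 1449449_at of Ptges was −0.012 (16α-LE2 minus the pooled samples).

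With the replicate number as a block, Ptgis was 0.030 (16α-LE2 minus placebo), −0.088 (beta-titled minus placebo) and 0.12 (16α-LE2 minus beta-titled), and Ptges was 0.0018 (16α-LE2 minus beta-titled). In that block Ptgds was 0.031 and, on 1423860_at, 0.073 (16α-LE2 minus estradiol), 1449450_at of Ptges 0.015 (16α-LE2 minus placebo) and −0.018 (beta-titled minus placebo), and 1417262_at of Ptgs2 0.032 (estradiol minus placebo). The block changed no call of a member. Whether the numbers pair the samples cannot be told from these values. Deviations of same-numbered samples from different groups correlated at a mean of 0.015, beside −0.0012 for differently numbered ones. Of 17 same-numbered pairs 6 had deviations correlated over 0.1 (from −0.38 to 0.43), and 3 of 20 arrays correlated best with their own number. With the block, 4 genes passed for 16α-LE2 against estradiol, and 38 and 3 probe sets passed for 16α-LE2 and estradiol against placebo.

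Leaving out 1 array at a time, Ptgis went from −0.10 to 0.16 (estradiol minus placebo), −0.069 to 0.11 (beta-titled minus placebo) and −0.11 to 0.15 (estradiol minus beta-titled). Ptgds went from −0.054 to 0.02 and, on 1423860_at, −0.061 to 0.065 (16α-LE2 minus estradiol). Ptges went from −0.066 to 0.020 (16α-LE2 minus estradiol) and −0.055 to 0.020 (estradiol minus beta-titled), and 1449450_at from −0.014 to 0.027 (beta-titled minus placebo). Ptgs2 went from −0.036 to 0.062 (1417262_at, estradiol minus placebo), −0.037 to 0.074 (1417262_at, beta-titled minus placebo) and −0.064 to 0.038 (1417263_at, 16α-LE2 minus estradiol).

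The number of genes past the threshold moved more. For 16α-LE2 against placebo (27) it was 16 with the mean of probe sets, 357 with array weights and 71 with placebo and beta-titled samples pooled. Leaving out arrays, it was 8 (without placebo replicate 31) to 74 (without estradiol replicate 33). For 16α-LE2 against estradiol (2) it was 4 with no filter, 0 with the mean of probe sets and 20 with array weights, and 0 to 11 leaving out arrays. For 16α-LE2 against the beta-titled group (21) it was 32 with quantile normalization, 122 with array weights and 46 with only those groups, and 7 to 37 leaving out arrays. Estradiol against placebo and against the beta-titled group (0 each) gave 0 to 1 leaving out arrays. Of probe sets, 16α-LE2 against placebo (24) gave 13 with quantile normalization, 319 with array weights and 8 with only those groups. It gave 68 with placebo and beta-titled samples pooled, and 7 to 64 leaving out arrays. 16α-LE2 against estradiol (4) gave 14 with array weights, 0 with only those groups and 0 to 10 leaving out arrays, and estradiol against placebo (0) gave 0 to 1 leaving out arrays.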
